A study of Mus musculus with 35 samples.

Results

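The comparison described here asks whether the difference between mice carrying 1 floxed Mettl3 allele and wild-type mice of the same age was larger or smaller in 1 thymocyte stage than in the other. Double positive (DP) thymocytes carry both CD4 and CD8, and double negative (DN) thymocytes carry neither. The quantity is an interaction on the log2 scale, the WT DP minus young DP difference less the WT DN minus young DN difference. A positive interaction means that the difference was more positive in DP than in DN cells. It was computed from 20 of the 35 libraries of the series, for all 14655 of 41096 genes that passed a filter on low counts.

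Bulk RNA was sequenced from mouse thymocytes separated by flow sorting. The 4 groups held 5 libraries each, from mice aged 10 weeks. WT DP and WT DN came from Mettl3flox/wt; Cd4Cre mice, in which a Cre transgene under the Cd4 promoter can delete the single floxed copy in cells that have switched Cd4 on. Young DP and young DN came from wild-type mice, with no floxed allele and no Cre named in the labels. The WT mice were therefore not wild type, and the floxed allele, the Cre and whatever else separates the mouse stocks differed between the groups together and cannot be told apart. Whether the 5 replicates of a group were separate animals is not stated, nor whether a number shared by a DP and a DN library marks one animal, so p-values measure the spread between these libraries. In bulk RNA, fewer cells of a type and less RNA per cell cannot be told apart either.

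METTL3 is the catalytic subunit of the enzyme complex that writes N6-methyladenosine onto nascent RNA. Thymocytes pass through the DN stage, where the T cell receptor beta chain is assembled and tested, before they turn on CD4 and CD8. The Cd4 promoter is little used at the DN stage, so most recombination by Cd4Cre is known to occur at the DP stage.

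The libraries held 13018069 to 18820157 counts. The mean depth was 17017500 ± 1144170 counts in WT DN and 14773600 ± 889776 in young DN libraries (SD, n = 5 each), while 16976 ± 778 genes were detected in WT DN and 19363 ± 261 in young DN. At equal depth the numbers were 16809 ± 755 genes in WT DN and 19174 ± 219 in young DN, with no overlap (exact 2-sided permutation test, p = 0.00794, adjusted p = 0.0303 over 42 library comparisons). This p is the smallest that the assignments of 5 against 5 libraries can give. In DP cells the numbers at equal depth were 17923 ± 597 in WT and 17775 ± 320 in young libraries (adjusted p = 0.762, exact permutation test). The library WT DN 2 stood apart, with summed B cell markers at 5013 CPM (counts scaled to library size) and dendritic and class II markers at 10372 CPM, against medians of 425 and 1092 CPM over the 5 WT DN libraries. WT DP 4 had the lowest share of counts in TEC genes of the 10 DP libraries, 0.123%. Xist, the RNA that coats the silenced X of female cells, was under 1 CPM in the 6 libraries of WT replicates 3, 4 and 5. It was at 832 to 2520 CPM in WT replicates 1 and 2 of both stages and at 2136 to 4223 CPM in all 10 young libraries, so that high and low Xist fell on the same replicate numbers at both stages. Low Xist occurred in WT libraries alone, so the WT and young groups were not balanced for it.

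The stage markers followed the labels. Cd4 averaged 1891 ± 260 CPM in WT DP and 1847 ± 70 CPM in young DP libraries, against 11.7 ± 3.5 CPM in WT DN and 29.3 ± 43.9 CPM in young DN libraries (SD, n = 5 each). Young DN 5 held 108 CPM of Cd4 and 159 CPM of Cd8a, whereas the other 4 young DN libraries held 6.15 to 16.5 CPM of Cd4. Il2ra, the CD25 chain that marks the middle DN stages, averaged 12.7 and 14.3 CPM in WT DP and young DP cells and 521 and 649 CPM in WT DN and young DN cells.

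Mettl3 itself gave 50.1, 44.3, 53.5, 53.3 and 51.7 CPM in the 5 WT DP libraries and 54.6, 57.7, 52.6, 44.7 and 55.5 CPM in the 5 young DP libraries. It gave 40.3, 56.4, 44.9, 44.0 and 53.3 CPM in WT DN libraries and 46.2, 48.5, 42.2, 42.0 and 46.4 CPM in young DN libraries. The groups overlapped at both stages. The differences were -0.07 log2 in DP cells and 0.08 log2 in DN cells, and the interaction was -0.15 (SE 0.13, 95% interval -0.43 to 0.12, adjusted p = 0.598, edgeR quasi-likelihood test, Benjamini-Hochberg). The count sums the whole gene and does not separate the floxed exons from the rest. Of the 6 tested members of the writer complex 0 were called for the interaction by edgeR or DESeq2, and 0 had an unadjusted p under 0.05. In DP cells all 6 were lower in WT, with a median of -0.17 log2. Of these 0 were called by edgeR or DESeq2, and 3 had an unadjusted p under 0.05. In DN cells 1 of the 6 was called lower in WT and 0 higher, against 13.3% and 14.9% of all genes. Mettl14, the RNA-binding partner of METTL3, had an interaction of -0.16 (adjusted p = 0.445).

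A gene is called below at an adjusted p under 0.05 from edgeR's quasi-likelihood test over all 14655 genes. For the interaction 100 genes were called, 81 higher (0.553% of genes tested) and 19 lower (0.13%), and 2190 genes had an unadjusted p under 0.05. The difference itself was called for 76 genes in DP cells, 30 higher (0.205%) and 46 lower (0.314%) in WT. In DN cells it was called for 4128 genes, 2186 higher (14.9%) and 1942 lower (13.3%) in WT. The median size of the called differences was 0.59 log2 in DP cells and 0.50 log2 in DN cells. The interaction calls were nearly all differences of the DN stage: for 93 of the 100 the DN difference was the larger in size, and 93 were called in DN cells while 4 were called in DP cells. For 88 of the 100 the WT and young values did not overlap in DN cells, against 24.1% of all genes tested, and for 6 they did not overlap in DP cells, against 3.99% of all genes. The 100 genes were picked from these same values, so their separation is not independent of that choice.

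The number of calls depended on single libraries, the tool, the genes and groups fitted together and a term for replicate number. DESeq2 called 331 genes, a fit to all 35 libraries 25, and a fit with the replicate number within each genotype as a block 15. Of these 15, 3 were protein coding. Without WT DP 4 there were 402 calls (199 higher, 203 lower). Leaving out WT DP 1, WT DP 3, young DP 1, young DP 3, young DP 5, young DN 1 or young DN 2 gave 47 to 64 calls. With protein-coding genes alone in the fit no gene was called (edgeR, 1589 of 12101 at an unadjusted p under 0.05, smallest adjusted p = 0.0623). Without the 6 WT libraries with Xist under 1 CPM, which left WT replicates 1 and 2 at each stage, there were 706 calls (316 higher, 390 lower). The DP count was 529 without WT DN 2, and 26 to 49 without WT DP 1, WT DP 3, WT DP 4, young DP 2, young DP 3, young DP 4 or young DN 2.

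**Figure D1:**
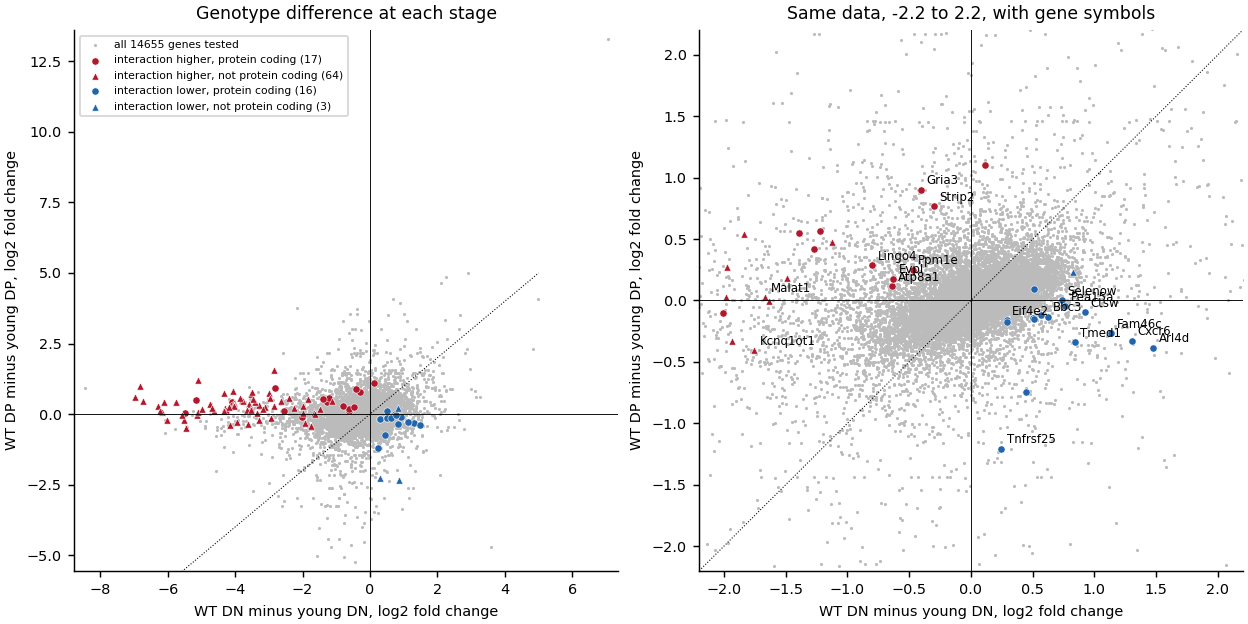
The log2 difference between WT and young cells in DP cells (vertical axis) against that in DN cells (horizontal axis) for all 14655 genes tested, at full range (left) and from -2.2 to 2.2 with gene symbols (right). Red marks the 81 genes called higher and blue the 19 called lower for the interaction, circles are protein coding and triangles are not, and the dotted line marks equal differences. The red triangles spread far to the left at DP differences near 0.

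The 81 higher genes were mostly not protein coding (64 of 81). Among them were 35 genes of the class TEC, unspliced transcripts awaiting experimental confirmation, which were 7.73% of the 453 TEC genes tested. A further 9 were sense intronic genes, 12% of the 75 tested, and 10 were antisense genes, 2.22% of 450. Protein-coding genes made up 17 of the 81, 0.14% of the 12111 tested. The median interaction of the 81 was 3.83, from a median DN difference of -3.53 and a median DP difference of 0.28 (all log2). Setting the 13 genes with no count in any WT DN library at a floor of 3 counts over the group (0.0353 CPM) gave medians of 3.70 and -3.47. As a median over these genes, the mean level was 2.13 CPM in WT DP, 1.60 CPM in young DP, 0.0703 CPM in WT DN and 1.06 CPM in young DN cells, so WT DN alone was low. Levels this low rest on few reads, and 65 of the 81 were under 1 CPM in WT DN.

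The classes as a whole were lower too. In DN cells 202 of the 453 TEC genes were called lower in WT and 1 higher, with a median difference of -1.11 log2, and 36 of the 75 sense intronic genes were lower and 0 higher, with a median of -1.46. Antisense genes had a median of -0.35 and long intergenic RNAs a median of -0.23, against 0.03 for protein-coding genes. In DP cells the medians were -0.01 for TEC genes, -0.01 for sense intronic genes and 0.01 for antisense genes, and 0 of the 978 genes of these 3 classes were called in DP cells by edgeR or DESeq2, with 40 at an unadjusted p under 0.05.

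The shares of counts per library were also compared. TEC genes took 0.0721% ± 0.0158 of counts in WT DN and 0.131% ± 0.0078 in young DN libraries (SD, n = 5 each), with no overlap, and 0.184% ± 0.035 in WT DP and 0.189% ± 0.018 in young DP libraries. The DN difference had an adjusted p of 0.0303 and the DP difference one of 0.867 (exact permutation tests over 42 comparisons). Among the series' other DN libraries, those from wild-type mice aged 60 weeks had a share of 0.130% ± 0.020.

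Many of these non-coding genes lie inside coding genes. Of 61 genes called higher in 5 non-coding classes (TEC, sense intronic, antisense, long intergenic and processed transcripts), 39 lie within the span of a protein-coding gene on its own strand, by the positions in the deposited table. They sit in 29 host genes, and 7 hosts hold more than 1 of them. Over all tested genes of these classes, 10.3% of the 378 inside a coding gene on its strand were called higher, 3.97% of the 378 inside one on the opposite strand, 0.248% of the 403 that partly overlap one and 1.24% of the 484 that overlap none. The median DN difference was -1.36, -0.65, -0.22 and -0.17 log2 in that order. The reads of an unspliced host transcript and of a gene within it on the same strand cannot be told apart by position, and the labels do not say whether the counting used strand.

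The coding genes around them had smaller differences. Over all 378 non-coding genes inside a coding gene on its strand, the median DN difference was -1.36 log2, and it was -0.12 for the surrounding coding gene, tested for 375 of them and counted once per gene inside. The 29 hosts of called genes had a median DN difference of -0.43 log2 (range -0.80 to 0.28) and a median interaction of 0.19. For the interaction 0 of the 29 were called by edgeR or DESeq2 (5 at an unadjusted p under 0.05). In WT DN 19 were called lower, against 13.3% of all genes and 855 of the 2422 longest coding genes tested. The hosts were picked through the called genes inside them, so this count is not independent of that choice. They were not matched to other genes by length. The 39 genes inside the hosts, chosen by their called interaction, had a median DN difference of -4.03, or -3.78 with genes at 0 set at the floor. Host genes included Ncoa2 and Crebbp, coactivators of transcription, Setd2, the histone H3 lysine 36 methyltransferase, Lef1 and Satb1, nuclear factors of T cell development, and Prkcb, a protein kinase C. Lef1 had a DN difference of -0.07 and Satb1 one of -0.08, against -3.11 and -3.53 for the TEC genes within them. Med13l, a Mediator subunit, had -0.80 in DN cells, against -2.99, -3.48 and -5.09 for the 3 TEC genes within it.

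A pair of TEC genes, picked after their values were seen, shows the pattern by library. The gene MGP_C57BL6NJ_G0001915 lies within Cux1, a homeobox transcription factor, on the minus strand at 146419582 to 146426463 of chromosome 5 in the table's strain assembly. It gave 9.24, 9.57, 7.28, 6.99 and 10.3 CPM in WT DP, 7.65, 7.70, 5.67, 5.88 and 6.97 CPM in young DP, 0.122, 0, 0.366, 0.357 and 0.716 CPM in WT DN, and 4.33, 3.48, 4.52, 2.99 and 3.76 CPM in young DN libraries. WT DN was below each of the other groups, and the DP groups overlapped. Its interaction was 3.94 (SE 0.50, adjusted p = 0.000287). Among the called TEC genes MGP_C57BL6NJ_G0000694 had a comparatively high level, 18.8 ± 5.4 CPM in WT DP, 18.4 ± 3.9 in young DP, 1.39 ± 0.35 in WT DN and 5.49 ± 0.51 in young DN libraries, with an interaction of 2.02 (SE 0.31, adjusted p = 0.00278).

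**Figure D2:**
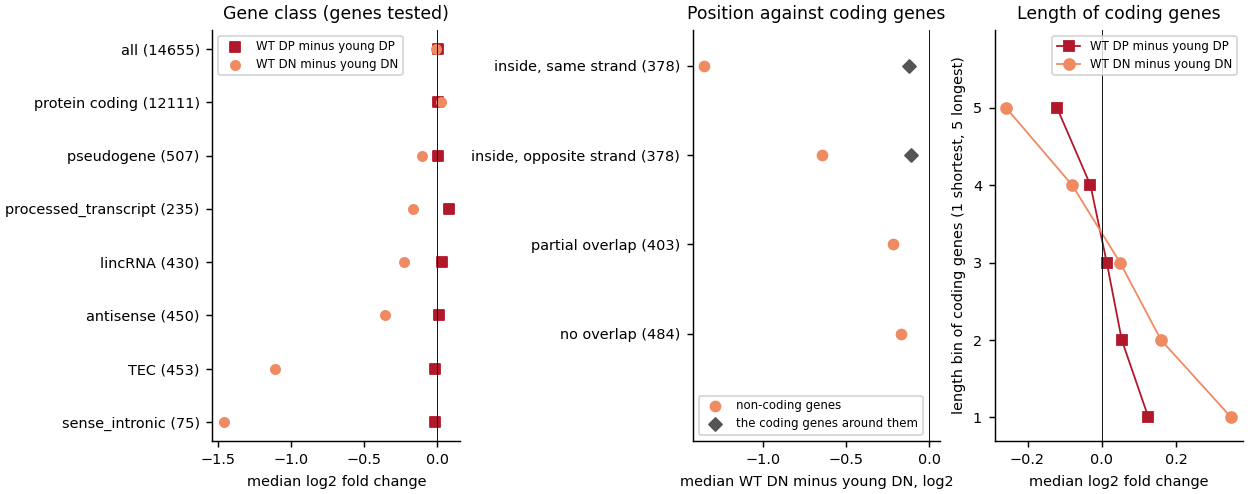
Median log2 differences between WT and young cells by gene class (left), by the position of 5 non-coding classes against protein-coding genes (middle, DN cells, with the surrounding coding genes as diamonds) and by 5 equal bins of coding genes by length (right). Numbers in brackets are genes tested. DN medians reach -1.46 for sense intronic genes while DP medians stay near 0, and coding genes run from 0.35 in the shortest to -0.26 in the longest bin in DN cells.

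Malat1 was the most abundant RNA with a called interaction. It is a long non-coding RNA that stays in the nucleus, where it gathers at speckles of splicing factors. It gave 2628, 2016, 2724, 962 and 1945 CPM in WT DP and 1558, 2384, 2192, 1962 and 2008 CPM in young DP libraries. It gave 436, 276, 241, 325 and 272 CPM in WT DN and 939, 909, 1142, 938 and 992 CPM in young DN libraries. The DP groups overlapped, with WT DP 4 the lowest, while all WT DN values lay below all young DN values. The DN difference was -1.67 log2 (SE 0.20, adjusted p = 5.54e-05), the DP difference 0.02 (adjusted p = 0.979), and the interaction 1.69 (SE 0.28, adjusted p = 0.00675). Malat1 was called without any 1 of the 20 libraries, and its adjusted p was 0.0659 with all 35 libraries in the fit.

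Kcnq1ot1 is an imprinted transcript that runs antisense to Kcnq1 and represses neighbouring genes in cis. It averaged 29.8 ± 7.0 CPM in WT DP, 39.4 ± 8.2 in young DP, 12.0 ± 4.4 in WT DN and 40.4 ± 3.6 in young DN libraries (SD, n = 5 each), with no overlap in DN cells. Its interaction was 1.35 (SE 0.30, adjusted p = 0.0374), and it stayed called in 5 of the 20 fits that each left out 1 library, with an adjusted p of up to 0.0773. In young cells its level did not separate the stages (DP minus DN -0.04 log2, adjusted p = 0.896), whereas in WT cells it was higher in DP than in DN (1.31 log2, adjusted p = 1.43e-05). Of 8 tested long nuclear and host-gene RNAs these 2 were called higher and 0 lower. Neat1, the scaffold of nuclear paraspeckles and a neighbour of Malat1, differed by 0.42 log2 in DN cells (adjusted p = 0.166), with an interaction of 0.01 (adjusted p = 0.992). The small nucleolar RNA hosts Gas5, Snhg1 and Snhg12, spliced RNAs, were higher in WT DN by 0.55, 0.54 and 0.83 log2 (adjusted p = 0.00104, 0.000562 and 0.00128).

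**Figure D3:**
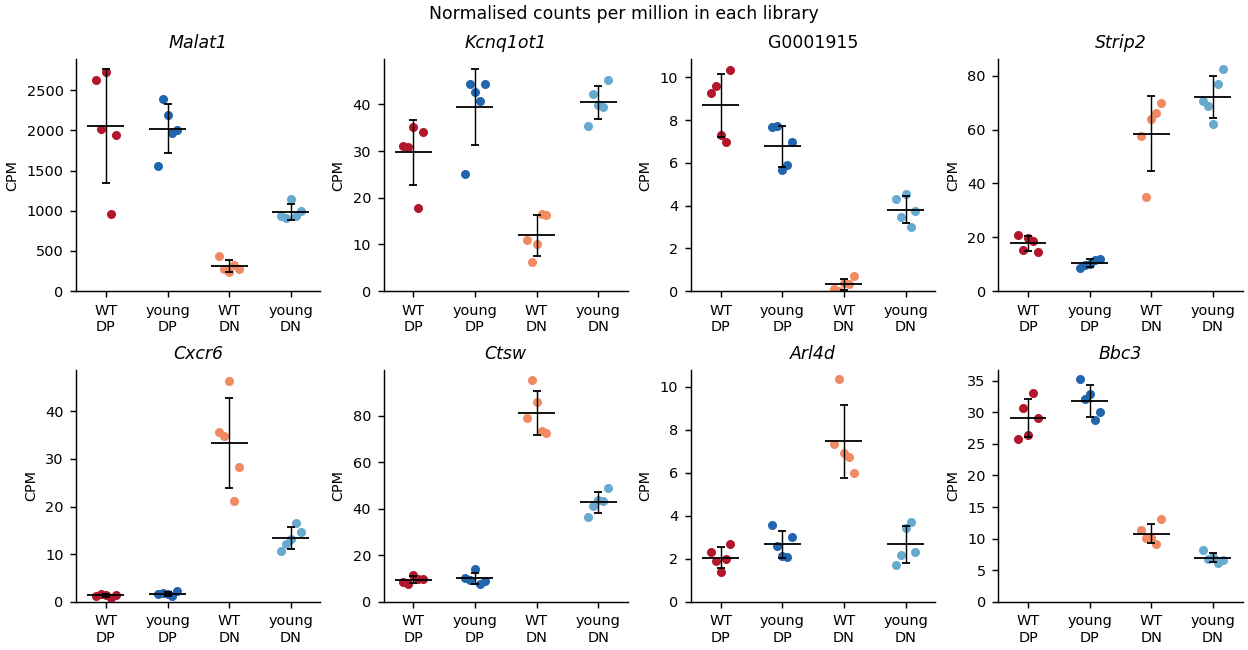
CPM in each library for 8 genes called for the interaction; points are libraries, bars the mean and SD of 5, and G0001915 is the TEC gene within Cux1. WT DN lies below young DN for Malat1, Kcnq1ot1 and G0001915 and above it for Cxcr6, Ctsw, Arl4d and Bbc3, while for Strip2 WT DP lies above young DP.

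Among called protein-coding genes that averaged 5 CPM or more in some group and did not overlap in at least 1 stage, 5 higher and 11 lower genes were named by size of the interaction or by adjusted p. Strip2, a member of the striatin-interacting phosphatase and kinase complexes, was the gene among these 16 whose difference lay in DP cells. It gave 20.9, 15.1, 19.8, 18.5 and 14.5 CPM in WT DP and 8.62, 9.83, 10.1, 11.7 and 12.0 CPM in young DP libraries, which do not overlap. In DN cells it averaged 58.5 ± 14.0 CPM in WT and 72.2 ± 7.8 CPM in young libraries. The DP difference was 0.77 log2 (adjusted p = 0.0276) and the interaction 1.07 (SE 0.22, adjusted p = 0.0215), and of the 20 libraries left out in turn WT DP 1 alone ended the call (adjusted p = 0.0536).

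The other 4 higher coding genes were lower in WT DN. Evpl, the cytoskeletal linker envoplakin, averaged 38.4 ± 7.4 CPM in WT DP, 34.0 ± 6.0 in young DP, 66.2 ± 5.7 in WT DN and 102 ± 7 in young DN libraries, with an interaction of 0.80 (adjusted p = 0.0250). Atp8a1, a phospholipid flippase, averaged 166 ± 34 CPM in WT DN and 258 ± 23 in young DN libraries and had an interaction of 0.75 (adjusted p = 0.0478). Lingo4, a leucine-rich repeat membrane protein, averaged 2.01 ± 0.49 CPM in WT DN and 3.50 ± 0.60 in young DN libraries, with an interaction of 1.09 (adjusted p = 0.0278). Ppm1e, a protein phosphatase, averaged 11.2 ± 1.7 and 15.5 ± 1.3 CPM in WT DN and young DN libraries, with an interaction of 0.72 (adjusted p = 0.0360).

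The 11 named lower coding genes were all called higher in WT DN than in young DN cells. Cxcr6, the receptor for the chemokine CXCL16, gave 35.7, 34.9, 46.5, 21.1 and 28.2 CPM in WT DN and 10.7, 12.0, 13.2, 16.6 and 14.6 CPM in young DN libraries. It was near 0 at the DP stage, at 1.33 ± 0.37 CPM in WT and 1.68 ± 0.38 in young libraries. The DN groups did not overlap, and the interaction was -1.64 (SE 0.32, adjusted p = 0.0175). Ctsw, a cysteine protease of natural killer (NK) and cytotoxic T cells, gave 78.9, 95.5, 86.2, 73.4 and 72.6 CPM in WT DN and 36.4, 41.0, 44.0, 43.3 and 49.2 CPM in young DN libraries, and averaged 9.41 ± 1.47 and 10.1 ± 2.5 CPM in WT DP and young DP libraries. Its interaction was -1.02 (SE 0.20, adjusted p = 0.0167). Ly9, a receptor of the SLAM family, averaged 91.7 ± 22.1 and 62.0 ± 6.5 CPM in WT DN and young DN libraries (interaction -0.68, adjusted p = 0.0490).

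Summed markers of NK and innate lymphoid cells were also higher in WT DN. Their summed level was 643 to 752 CPM in WT DN and 408 to 467 CPM in young DN libraries (adjusted p = 0.0303, exact permutation test), and 40.5 to 61.7 and 35.8 to 49.0 CPM in WT DP and young DP libraries. In DN cells 8 of the 13 markers were called higher in WT and 0 lower, against 14.9% higher and 13.3% lower of all genes. The median was 0.70 log2, and 11 of the 13 were positive, with a lowest value of -0.91. Among the 11 positive markers were Klrk1 (1.55, the highest of the 13), Gzmb (1.39) and Id2 (1.27). They encode the activating receptor NKG2D, granzyme B and a regulator of innate lymphoid fate. For the interaction edgeR called 0 of the 13 and DESeq2 1, 3 had an unadjusted p under 0.05, and Id2 had the smallest adjusted p, 0.131. The part of these cells in the Cxcr6 and Ctsw results was not tested.

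The remaining lower genes serve varied roles. Arl4d, a small GTPase, had the most negative called interaction of the named genes, -1.86 (SE 0.35, adjusted p = 0.0154). It gave 7.34, 10.3, 6.91, 6.72 and 5.97 CPM in WT DN and 1.70, 2.17, 3.45, 3.72 and 2.33 CPM in young DN libraries, and averaged 2.05 ± 0.49 and 2.68 ± 0.63 CPM in WT DP and young DP libraries. Its stage difference was -1.86 log2 in WT (adjusted p = 8.89e-07) and 0.00 in young cells (adjusted p = 0.994). Fam46c, a non-canonical poly(A) polymerase, averaged 9.55 ± 1.06 CPM in WT DN and 4.34 ± 0.80 in young DN libraries, with an interaction of -1.40 (SE 0.27, adjusted p = 0.0175). Arl4d, Cxcr6, Fam46c and Ctsw were called without any 1 of the 20 libraries, as Malat1 was. All 4 lost the call with protein-coding genes alone in the fit (adjusted p = 0.0623 each), and Cxcr6, Fam46c and Ctsw lost it with all 35 libraries (adjusted p = 0.621, 0.303 and 0.516). Arl4d, Fam46c and Ctsw also lost it with a replicate block (adjusted p = 0.112, 0.0914 and 0.0997, edgeR). The calls of Lingo4, Evpl, Bbc3 and Eif4e2 were lost in 5 to 7 of the 20 fits that each left out 1 library. Those of Kcnq1ot1, Atp8a1, Ppm1e, Tmed1, Pea15a, Selenow, Ly9 and Pole4 were lost in 11 to 16.

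Bbc3 encodes PUMA, a BH3-only protein that triggers apoptosis and acts in thymocyte death. It gave 25.9, 30.7, 26.5, 33.1 and 29.2 CPM in WT DP and 35.3, 32.1, 32.9, 28.8 and 30.1 CPM in young DP libraries. It gave 11.3, 10.1, 10.2, 9.16 and 13.1 CPM in WT DN and 8.19, 6.76, 7.09, 6.20 and 6.67 CPM in young DN libraries. The DN groups did not overlap and the DP groups did. The interaction was -0.75 (SE 0.16, adjusted p = 0.0266), and it was the call among 20 tested genes of the apoptosis and BCL2 family list, whose median interaction was -0.16 against 0.00 over all genes.

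Selenow is a small selenoprotein. It averaged 98.1 ± 10.5 CPM in WT DP and 97.9 ± 7.5 in young DP, 120 ± 31 in WT DN and 72.2 ± 5.5 in young DN libraries, so that DP was below DN in WT (-0.29 log2, adjusted p = 0.0339) and above it in young cells (0.44 log2, adjusted p = 0.00318). Ly9 had stage differences of -0.26 in WT (adjusted p = 0.0487) and 0.42 in young cells (adjusted p = 0.00253). Of the 100 called genes 33 had stage differences of opposite sign in WT and young cells, without regard to whether each was called. WT DN 2 was the highest WT DN library for both genes, at 174 CPM for Selenow and 131 CPM for Ly9. Without it the stage difference in WT was -0.12 for Selenow (adjusted p = 0.185) and -0.10 for Ly9 (adjusted p = 0.278), and neither was called. The interactions were then -0.56 and -0.52 and were called (adjusted p = 0.0238 and 0.0240).

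The other named lower genes had interactions of -1.18 for Tmed1, a vesicle transport protein of the early secretory pathway (adjusted p = 0.0390), -0.81 for Pea15a, a death effector domain protein (adjusted p = 0.0374), -0.66 for Pole4, an accessory subunit of DNA polymerase epsilon (adjusted p = 0.0398), and -0.45 for Eif4e2, a cap-binding repressor of translation (adjusted p = 0.0250). Eif4e2 averaged 93.5 ± 5.6 CPM in WT DP, 105 ± 7 in young DP, 124 ± 7 in WT DN and 101 ± 6 in young DN libraries.

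Called genes outside the naming rule, chosen after their values were seen, are Tnfrsf25, Gria3 and Ada. Tnfrsf25, the death receptor DR3, ranged from 1.50 to 2.72 CPM in WT DP and from 3.05 to 6.02 CPM in young DP libraries, with no overlap. It had a DP difference of -1.21 log2 (adjusted p = 0.0230) and an interaction of -1.45 (adjusted p = 0.0433). Gria3, a glutamate receptor subunit on the X chromosome, averaged 5.09 ± 1.07 CPM in WT DP and 2.70 ± 0.96 in young DP libraries, with an interaction of 1.31 (adjusted p = 0.0250). Ada, adenosine deaminase, whose loss causes lymphocyte deficiency, averaged 86.3 CPM in WT DN and 60.4 CPM in young DN libraries, with an interaction of -0.42 (adjusted p = 0.0374).

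Coding genes shifted with their length in DN cells. They were split into 5 equal bins by length. In the shortest bin (up to 2139 bases) 963 of 2423 genes were called higher and 55 lower in WT DN, and in the longest bin (from 6725 bases) 58 of 2422 were called higher and 855 lower. The median DN difference was 0.35, 0.16, 0.05, -0.08 and -0.26 log2 from the shortest to the longest bin. The DP medians ran the same way over a smaller range, 0.12, 0.05, 0.01, -0.03 and -0.12, and the interaction medians ran from -0.22 to 0.13. Each library was given the median deviation from its stage mean in the longest bin less that in the shortest. This measure was -0.29 ± 0.31 in WT DN and 0.29 ± 0.06 in young DN libraries (adjusted p = 0.0303), with no overlap, and -0.11 ± 0.21 in WT DP and 0.10 ± 0.13 in young DP libraries (adjusted p = 0.185, exact permutation tests). WT DN 2 had the lowest value, -0.85, and WT DP 4 the lowest of the DP libraries, -0.42.

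With the length trend of each library removed, the interaction gave 107 calls, of which 90 were among the 100, and the DN comparison gave 2576 calls in place of 4128. Among the named genes Kcnq1ot1 then had an interaction of 0.75 (adjusted p = 0.0603), Malat1 1.61 (adjusted p = 0.00582) and Cxcr6 -1.48 (adjusted p = 0.0308).

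**Figure D4:**
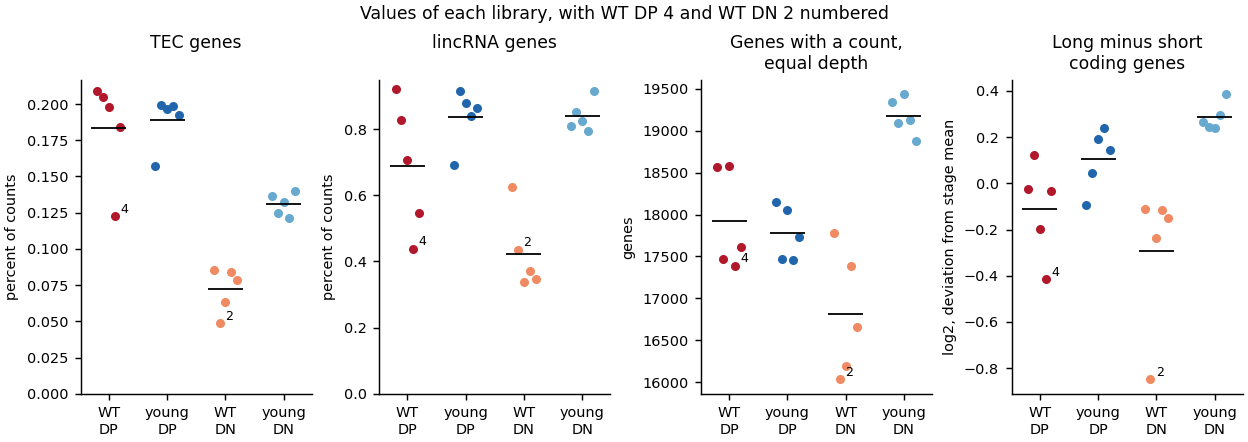
Share of counts in TEC genes and in long intergenic RNA genes, genes with a count at equal depth, and the difference between long and short coding genes, for each library; horizontal bars are means of 5, and WT DP 4 and WT DN 2 carry their numbers. WT DN lies apart from young DN in all 4 panels, the DP groups overlap, and WT DP 4 is the lowest DP library for TEC genes and for the length measure.

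Genes of the ribosome and of the respiratory chain, most of them short, were higher in WT DN cells. Of 35 tested ribosomal protein genes 25 were called higher and 0 lower in WT DN, with a median of 0.58 log2, against 14.9% of all genes called higher. For the interaction edgeR called 0 and DESeq2 1, 21 had an unadjusted p under 0.05, the median was -0.51 against 0.00 over all genes, and 1 of 35 was positive. Rps2, a small subunit protein, averaged 245 and 242 CPM in WT DP and young DP libraries, against 1236 and 808 CPM in WT DN and young DN libraries (interaction -0.60, adjusted p = 0.0989). Of 30 oxidative phosphorylation genes 24 were called higher in WT DN, with a median of 0.49, and all 30 interactions were negative, with a median of -0.36. Of these edgeR called 0 and DESeq2 1, and 18 had an unadjusted p under 0.05. Ndufb3, a complex I subunit, had an interaction of -0.69 (adjusted p = 0.112). Without WT DP 4, 10 ribosomal protein genes and 4 oxidative phosphorylation genes were called for the interaction. In that fit 402 of all 14925 genes tested were called, 203 of them lower. The part of gene length in these values was not tested gene by gene.

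Cell cycle and growth lists had calls in DN cells and 0 for the interaction by edgeR or DESeq2, with 0 to 4 members per list at an unadjusted p under 0.05. In WT DN 10 of 29 S phase genes were called higher and 0 lower, 7 of 30 G2 and mitosis genes higher and 3 lower, and 11 of 24 Myc target and ribosome biogenesis genes higher and 4 lower, against 14.9% higher and 13.3% lower of all genes. The G2 and mitosis counts lie near those shares. Chaf1b, a subunit of the histone chaperone CAF-1, had a DN difference of 0.32 (adjusted p = 0.00395) and an interaction of -0.23 (adjusted p = 0.319). Of 14 glycolysis genes 1 was called higher, and of 21 cholesterol synthesis genes 1. Among 10 replication-dependent histone genes 2 were called higher.

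In the thymocyte stage lists the calls of lower genes in DN cells lay near the share of all genes. Of 20 DN stage genes 3 were called lower and 0 higher in WT DN, and of 19 DP stage genes 3 lower and 0 higher. Over all genes 13.3% were called lower and 14.9% higher. In WT DP 1 DP stage gene was called lower, against 0.314% of all genes. For the interaction edgeR called 0 in either list and DESeq2 1 DN stage gene, and 2 members of each list had an unadjusted p under 0.05. Rag1, the recombinase, averaged 6210 ± 916 CPM in WT DP and 9088 ± 909 CPM in young DP, 725 ± 237 in WT DN and 1218 ± 272 in young DN libraries. Its differences were -0.55 log2 in DP (adjusted p = 0.228) and -0.75 in DN cells (adjusted p = 0.0108), and its interaction was 0.20 (95% interval -0.40 to 0.80, adjusted p = 0.758). Rag2 had an interaction of 0.02, Ptcra, the pre-T cell receptor alpha chain, -0.02, Il2ra 0.13 and Kit, the stem cell factor receptor, -0.31, with adjusted p of 0.61 to 0.967. Cd4 had an interaction of 1.36 (95% interval -0.15 to 2.86, adjusted p = 0.382), Cd8a 0.35 and Cd8b1 -0.38. Young DN 5, the library with high Cd4 and Cd8a, set the sign of the first 2 values. Without it the interactions were -0.23 for Cd4 (adjusted p = 0.763), -0.80 for Cd8a (adjusted p = 0.213) and -0.79 for Cd8b1 (adjusted p = 0.125). The values of Il2ra, Rag2 and Ptcra lay near 0 and also turned sign when single libraries were left out.

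Selection and single positive genes included 6 of 23 called higher and 1 lower in WT DN, with a median interaction of -0.40. For the interaction 0 of the 23 were called by edgeR or DESeq2, and 5 had an unadjusted p under 0.05. Their summed level ran from 2073 to 3743 CPM in WT DN libraries, with a median of 2274 CPM. T cell receptor signalling genes gave 4 higher and 3 lower of 22, with Zap70, a proximal kinase, higher by 0.36 in WT DN (adjusted p = 0.00174) and at an interaction of -0.36 (adjusted p = 0.108). Notch pathway genes gave 1 higher and 5 lower of 15. Of 21 integrin and chemokine receptor genes 3 were higher and 6 lower in WT DN, and Cxcr6 was the 1 call for the interaction. Over all genes 14.9% were called higher and 13.3% lower in WT DN, and the counts for T cell receptor signalling lie near those shares.

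Igf2bp3, an RNA-binding protein that recognises methylated RNA and is best known from fetal tissue, had the same direction at both stages. It gave 4.19, 4.35, 4.76, 2.68 and 4.10 CPM in WT DP and 28.0, 30.2, 25.4, 23.9 and 26.7 CPM in young DP libraries. It gave 2.69, 2.04, 3.87, 2.62 and 2.63 CPM in WT DN and 31.7, 28.6, 29.4, 31.6 and 32.0 CPM in young DN libraries. All WT values lay far below all young values. The differences were -2.74 log2 in DP (adjusted p = 2.04e-10) and -3.46 in DN cells (adjusted p = 2.61e-12), and the interaction was 0.73 (95% interval 0.29 to 1.16, unadjusted, adjusted p = 0.117). DESeq2 called this interaction (adjusted p = 0.0245), as did edgeR without the 6 WT libraries with Xist under 1 CPM (adjusted p = 0.0341). It was not called in 18 of the 20 fits that each left out 1 library. Igf2bp3 was the 1 call in DP cells among 12 tested m6A erasers and readers, and for the interaction edgeR called 0 of the 12 and DESeq2 1. In WT DN 1 of these 12 was called higher and 4 lower, against 14.9% higher and 13.3% lower of all genes. In the fetal and Lin28 axis list Igf2bp3 was the 1 call of 6 at each stage.

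Ferroptosis is an iron-dependent form of cell death driven by lipid peroxidation. Of 19 tested suppressor genes 4 were called higher and 1 lower in WT DN, and of 17 driver and iron handling genes 3 were called lower. Over all genes 14.9% were called higher and 13.3% lower in WT DN. The counts of higher suppressors and of lower drivers lie near those shares. In DP cells and for the interaction 0 members of either list were called by edgeR or DESeq2. For the interaction 4 suppressors and 1 driver had an unadjusted p under 0.05. Gpx4, the peroxidase that detoxifies lipid peroxides, averaged 77.1 ± 11.4 CPM in WT DP and 66.9 ± 7.6 in young DP, 86.7 ± 17.3 in WT DN and 62.5 ± 3.2 in young DN libraries, with an interaction of -0.27 (95% interval -0.61 to 0.07, adjusted p = 0.446). Slc7a11, the cystine importer, averaged 253 ± 60 and 238 ± 41 CPM in WT DP and young DP libraries, and 5.35 ± 1.05 and 10.5 ± 6.4 CPM in WT DN and young DN libraries. Its interaction was 1.08 (95% interval 0.28 to 1.88, unadjusted, adjusted p = 0.209).

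Markers of other cell types, 94 genes in 9 lists, had 0 interaction calls by edgeR and 1 by DESeq2, with 8 at an unadjusted p under 0.05. In WT DN 3 of 17 B cell markers and 2 of 8 plasma cell markers were called higher and 0 lower, and dendritic and class II markers gave 6 higher and 1 lower of 14. WT DN 2 was the library with high B cell and dendritic sums. Median sums were 425 and 1092 CPM in WT DN, against 416 and 867 CPM in young DN libraries. For the sums of these 3 lists, B cell, plasma cell and dendritic, the adjusted p was 0.847, 0.0556 and 0.656 in DN cells (exact permutation tests). Lower in WT DN were 1 of 10 macrophage, 2 of 9 granulocyte and mast cell, 1 of 3 erythroid and 2 of 7 thymic stromal markers, and gamma delta and innate-like T cell markers gave 2 higher and 1 lower of 13. The remaining lists also held 0 interaction calls (edgeR), and in DN cells interferon response genes gave 2 higher and 3 lower of 30, immediate early and stress genes 4 higher of 29, TGF-beta and BMP genes 2 higher and 5 lower of 20, cytokine signalling inhibitors 2 higher and 1 lower of 12, and recombination and end joining genes 3 higher and 4 lower of 16. These counts stand beside 14.9% higher and 13.3% lower of all genes in DN cells.

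The stages were also compared within each genotype. DP differed from DN for 10113 genes in WT cells (4833 higher, 5280 lower) and for 9149 genes in young cells (4313 higher, 4836 lower). The interaction is the difference between these comparisons as much as between the genotypes, and its calls were 0.682% of the genes tested.

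**Figure D5:**
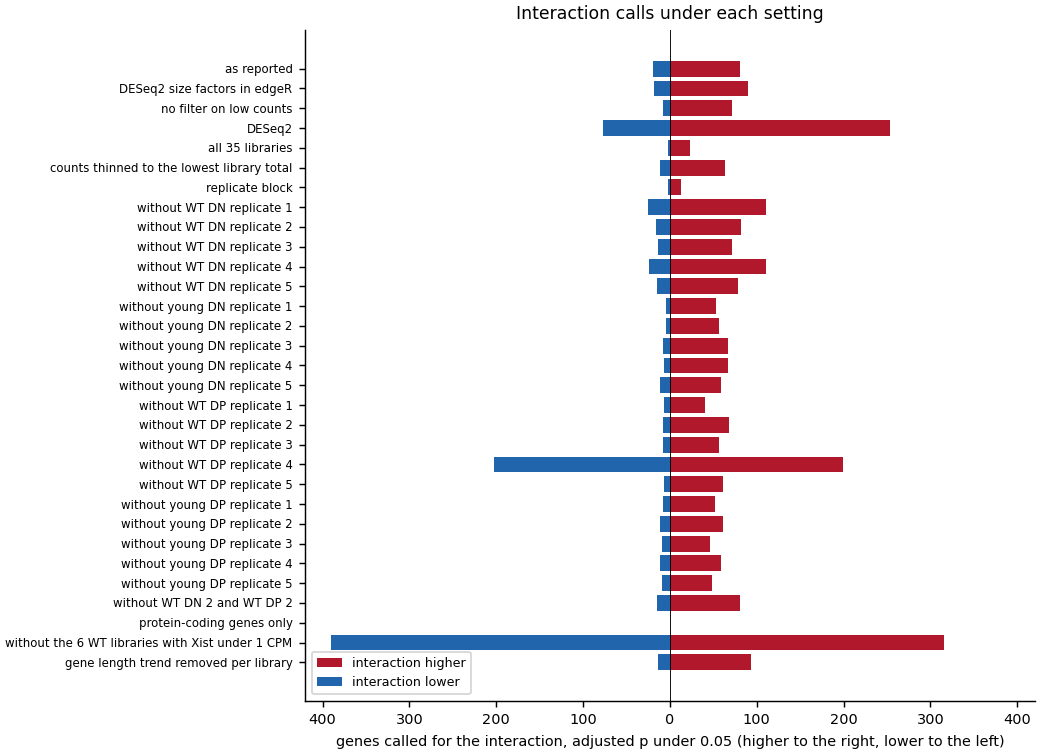
Number of genes called for the interaction under each processing setting, higher to the right and lower to the left of 0. The bars as reported reach 81 and 19 genes, and bars are longest without the 6 WT libraries with Xist under 1 CPM and without WT DP 4.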

How the data were processed

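The deposited table gives whole-number read counts per gene and library, which the authors left unnormalized, for 41096 genes under C57BL/6NJ strain identifiers. Per the submitters' processing notes, STAR 2.5.1, HTSeq 2.0.3, Subread, Trim Galore 0.4, bcl2fastq and DESeq2 were used with the builds mm10 and GRCm39; which program counted, and whether by strand, is not given in the sources used here. Per the labels' protocols, total RNA of sorted cells went into standard BGI libraries. Positions are those of the table. Names came from the table, with 385 taken from its descriptions; 10687 genes have an identifier only. The table held 0 mitochondrial-chromosome and 0 Y-chromosome genes.

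Counts of the 20 libraries were fitted in edgeR 4.0.16 (R 4.3.3) with TMM scaling, 1 mean per group and a quasi-likelihood F test, 2-sided, after filterByExpr (minimum count 10, minimum total 15). Benjamini-Hochberg adjustment covered all 14655 genes. CPM are on TMM-scaled library sizes. Standard errors are Wald errors on the quasi-likelihood scale. Library values were compared by exact permutation in scipy 1.17.1. The procedure was tested on simulated data. Precision is limited by counting at low CPM; floors of 3 counts cover counting error only.

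Members and gene lists were chosen with earlier results of these data known. Named genes were Mettl3, the 10 most positive and 10 most negative called genes with at least 5 CPM in some group, no overlap in at least 1 stage and a proper symbol, the 5 in each direction with the smallest adjusted p, up to 2 called members in each direction per list (or its smallest p), and 11 fixed genes. Alternatives were scaling, no filter, DESeq2 1.42.0, all 35 libraries, thinning, a replicate block and leaving out libraries. Added after the data were seen were protein-coding genes only, removal of the length trend (loess of log2(CPM + 0.5) within stage) and leaving out the 6 WT libraries low in Xist. The last of these left WT replicates 1 and 2 at each stage.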

Additional observations from a re-analysis of the deposited data

Results flagged for a closer look

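The genotype difference itself differed between the stages for 100 genes by the interaction test. Among the named genes the interaction was 1.69 for Malat1, 1.35 for Kcnq1ot1, 1.09 for Lingo4, 1.07 for Strip2, 0.80 for Evpl, 0.75 for Atp8a1 and 0.72 for Ppm1e. It was -1.86 for Arl4d, -1.64 for Cxcr6, -1.40 for Fam46c, -1.18 for Tmed1, -1.02 for Ctsw, -0.81 for Pea15a, -0.75 for Bbc3, -0.73 for Selenow, -0.68 for Ly9, -0.66 for Pole4 and -0.45 for Eif4e2 (log2).

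Some single libraries lay far from the other 4 of their group. Over 160 groups of 5 values examined, chance alone gives about 1 in 20 such cases. WT DN 2 was set apart for Atp8a1 (107 CPM), Tmed1 (13.7 CPM), Selenow (174 CPM) and Ly9 (131 CPM), for its share of counts in the 50 highest genes (10.4%) and in pseudogenes (0.788%), for the difference between long and short coding genes (-0.85 log2), and for summed B cell (5013 CPM) and dendritic and class II markers (10372 CPM). WT DN 3 was set apart for Ppm1e (14.1 CPM).

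WT DP 4 was set apart for Kcnq1ot1 (17.8 CPM), for its share of counts in TEC genes (0.123%) and for granulocyte and mast cell markers (9.41 CPM), and WT DP 1 for gamma delta and innate-like T cell markers (1086 CPM). Young DP 1 was set apart for Kcnq1ot1 (25.1 CPM), Eif4e2 (117 CPM), TEC genes (0.157% of counts), sense intronic genes (0.0207% of counts) and gamma delta and innate-like T cell markers (1130 CPM). Young DP 2 was set apart for dendritic and class II markers (1092 CPM) and young DP 3 for thymic epithelial and stromal markers (179 CPM). Young DN 3 was set apart for granulocyte and mast cell markers (1177 CPM) and young DN 4 for counts outside protein-coding genes (2.39%).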

How the results depend on the processing

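None of the 18 named called genes changed sign under the settings tried. Of the 40 named genes that were not called, 6 changed sign in some setting (Cd4, Cd8a, Il2ra, Rag1, Rag2 and Ptcra), and none was called there. The balance of higher and lower calls turned without WT DP 4 (199 higher, 203 lower) and without the 6 WT libraries low in Xist. The 100 interaction calls (81 higher, 19 lower) became 331 (254, 77) with DESeq2, 25 (23, 2) with all 35 libraries in the fit, and 0 (0, 0) with protein-coding genes only. They became 706 (316, 390) without the 6 WT libraries with Xist under 1 CPM, which left WT replicates 1 and 2 at each stage. In that fit 17 of the 18 named called genes were called. Lower calls numbered 8 with no filter and 11 after thinning to equal depth. Leaving out 1 library gave 47 to 402 calls, 40 to 199 higher and 5 to 203 lower. WT DP against young DP gave 335 genes with DESeq2, 4 with all 35 libraries, and 26 to 529 with 1 library left out; the 529 came without WT DN 2. WT DN against young DN gave 1752 genes with all 35 libraries and 2576 with the length trend removed. The causes were not tested.

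Of the 18 named called genes, 18 were called with DESeq2, 11 after thinning, 12 with no filter, 14 with the length trend removed, 2 with all 35 libraries (Arl4d and Eif4e2) and 3 with a replicate block (Malat1, Strip2 and Cxcr6). Of the 16 that are protein coding 0 were called with protein-coding genes only. With the replicate number within each genotype as a block the interaction gave 15 calls (13 higher, 2 lower). For WT DP against young DP the block was the number alone, shared between WT and young libraries, and 48 genes were called. That block joins mice of different genotypes, so it is a different check. The labels do not tie replicate numbers to animals. Pairing was taken as given only if every same-number correlation between stages exceeded 0.1, and 7 of 10 did (range -0.16 to 0.52). In 6 DN libraries the best correlation was with their own number, and Xist status also went by number at both stages, so equal numbers may mark one animal. Depth limits the 65 higher genes under 1 CPM in WT DN.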

Other observations

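Of 507 tested pseudogenes 42 were called higher and 41 lower in WT DN (edgeR quasi-likelihood test), with a median of -0.11 log2, and 3 were called higher and 1 lower for the interaction. Of 32 immunoglobulin segments 12 were called higher and 0 lower in WT DN, with a median of 2.10 log2, and 0 were called for the interaction by edgeR or DESeq2 (3 at an unadjusted p under 0.05). WT DN 2 is the library with high B cell markers. Of 129 T cell receptor segments 6 were called higher and 24 lower in WT DN, with a median of -0.46 log2. Over all genes 14.9% were called higher and 13.3% lower in WT DN, and 0.553% higher and 0.13% lower for the interaction. The pseudogene shares in WT DN (8.28% and 8.09%) lie below these. The share of T cell receptor segments called lower (18.6%) lies not far above that of all genes. Short segments and near-identical copies share reads, so single members of these classes are uncertain.

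Jchain, the joining chain of secreted antibodies, averaged 4.56 CPM in WT DP and 2.56 CPM in young DP libraries, and 72.2 CPM in WT DN and 8.29 CPM in young DN libraries. Its DN difference was 3.12 log2 (adjusted p = 0.001) and its interaction -2.29 (adjusted p = 0.214). The interaction had an adjusted p of 0.435 without WT DN 2 and WT DP 2. It was 0.0353 without the 6 WT libraries with Xist under 1 CPM (edgeR). Summed plasma cell markers were uneven in WT DN, from 268 to 608 CPM with a median of 311 CPM, so means there may not be typical of single libraries.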
